A study of Mus musculus with 8 samples.

Results

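The aminoacyl-tRNA synthetases were followed in resting mouse B cells and T cells as 36 genes, 20 of them coding for cytosolic and 16 for mitochondrial enzymes. They were taken from a fixed list of names by matching each Ensembl gene ID in the count files to its symbol, and all 36 were found among the 53801 IDs. Mars1 stands under its older symbol, Mars, in the table of names. Mitochondrial members were those whose names end in 2.

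Each synthetase joins a given amino acid to its own transfer RNAs, and the charged transfer RNAs then bring that amino acid to the ribosome. Mammalian cells keep separate enzymes for the cytosol and for the mitochondrion, nearly all of them coded by different nuclear genes. Several cytosolic enzymes are held together in the multisynthetase complex, and many cytosolic synthetase genes are known targets of ATF4, the transcription factor of the amino acid response.

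The study held 4 groups of 2 libraries each: ribosome footprints of B cells, ribosome footprints of T cells, mRNA of B cells and mRNA of T cells. All cells came from the spleen of B6 mice, were isolated by magnetic sorting and were cultured for 2 h in complete RPMI medium, with no other agent named. Cells for ribosome profiling, which sequences the stretches of mRNA that ribosomes protect from nuclease, also received 100 µg/ml cycloheximide, an inhibitor of elongation, for 15 min before harvest. RNA-seq measured mRNA with no such treatment named. The age of the mice and any genotype beyond the strain are not stated in these sources. Whether the libraries of a group came from separate animals is not stated, and p-values therefore measure only the library-to-library spread, which may be technical.

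Library totals ran from 136433 to 627833 counts in footprints and from 8945905 to 10050986 counts in RNA-seq. The 5 B cell markers summed to 11620 and 7769 CPM (counts scaled to library size) in B cell footprints, against 139 and 580 CPM in T cell footprints, and to 8460 and 8713 CPM in B cell mRNA, against 64.0 and 139 CPM in T cell mRNA. The 6 T cell markers summed to between 33.8 and 163 CPM in B cell footprints, against 2638 to 4104 CPM in T cell footprints. In mRNA they summed to 21.2 CPM in B cell library 1 and 316 CPM in B cell library 3, against 3019 and 3326 CPM in the T cell libraries. The 4 plasma cell markers also differed between libraries of a group, at 1517 and 370 CPM in B cell mRNA and at 1107 and 118 CPM in T cell mRNA. In B cell footprint libraries 1 and 3, in that order, they summed to 1221 and 2883 CPM, the 3 neutrophil markers to 8.45 and 484 CPM and the 4 natural killer cell markers to 63.4 and 398 CPM. The 4 macrophage markers summed to 40.2 and 107 CPM in B cell mRNA and to 39.7 and 222 CPM in T cell mRNA. The part of these other cells in the results below was not tested, and in bulk samples fewer cells of a type and less RNA per cell cannot be told apart.

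The synthetases were read at very different precision in the 2 assays. The cytosolic members had between 3 and 221 footprint counts per library, and between 284 and 6916 RNA-seq counts. The mitochondrial members had between 0 and 244 footprint counts, and between 44 and 12359 RNA-seq counts. In footprints, a count of 0 occurred for Fars2 and Wars2 in B cell library 1, where it allows up to 12.7 CPM, and for Pars2 in T cell library 2, where it allows up to 21.7 CPM (limits of 3 counts, counting error only). The CPM values below use library totals scaled by TMM. Levels of different genes were not compared with each other, because transcript lengths were not used here.

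**Figure D1:**
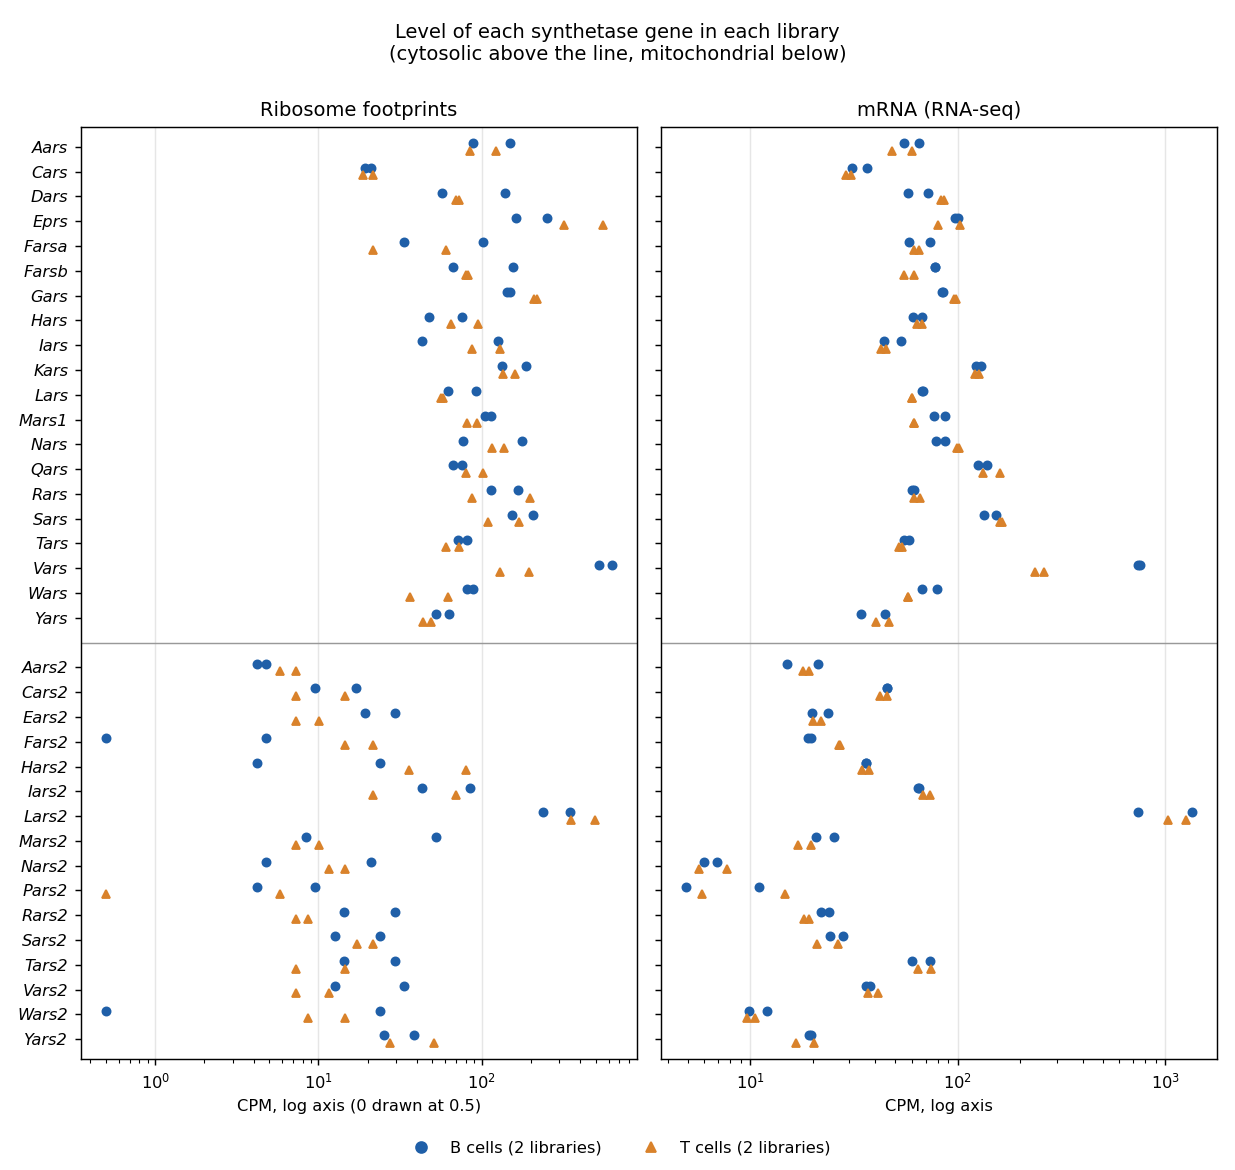
CPM of each of the 36 synthetase genes on a log axis, in ribosome footprints (left) and in mRNA (right), with a circle for each B cell library and a triangle for each T cell library (2 each). B cell and T cell symbols lie close together in mRNA for nearly every gene except Vars, at 738 and 754 CPM in B cells and 261 and 235 CPM in T cells, and the footprint symbols of the mitochondrial genes scatter widely.

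The start windows of the synthetase genes were searched for the amino acid response element TGATGNAA, the sequence that ATF4 binds together with partners of the C/EBP family. The windows were those of RefSeq on GRCm38.p6, from 250 bases before to 50 bases after the start of the transcript, and were available for 13 cytosolic and 14 mitochondrial members. The motif, on either strand, was present in the windows of 5 cytosolic members (38.5%) and 0 mitochondrial members, beside 3.97% of all 32851 windows and 3.6% of those of protein-coding genes. The sites of 4 of these members are shown because they match the letters of the element. Each is printed 5′ to 3′ along the strand that reads TGATGNAA, with 10 flanking bases in lower case and the motif in capitals.
Gars, glycine, chr6:55037961-55037988, minus strand: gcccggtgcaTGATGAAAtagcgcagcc
Iars, isoleucine, chr13:49682127-49682154, minus strand: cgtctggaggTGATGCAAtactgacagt
Tars, threonine, chr15:11399656-11399683, plus strand: gctaaccagcTGATGCAAcgggactcct
Yars, tyrosine, chr4:129189896-129189923, plus strand: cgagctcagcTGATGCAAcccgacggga

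The first motif base, counted along the gene, lay at -30 in Gars, 8 in Iars, -15 in Tars and 4 in Yars, relative to the start. Of these genes only the Yars motif reads along the strand of its gene. None of the 4 passed the test between B cells and T cells in mRNA in edgeR, where their log2 differences ran from -0.19 (Gars) to 0.15 (Iars). A match is a description of these letters and does not show that ATF4 was bound. No window was at hand for Cars, Hars, Lars, Nars, Rars, Vars, Wars, Hars2 or Pars2.

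Vars, the cytosolic valyl-tRNA synthetase (ENSMUSG00000007029, chr17:35000907-35016329), was the member that differed between the cell types in both assays. In footprints it had 629 and 522 CPM in B cells, against 197 and 130 CPM in T cells. In mRNA it had 738 and 754 CPM in B cells, against 261 and 235 CPM in T cells. In each assay both B cell libraries lay above both T cell libraries. B cell footprint libraries 1 and 3 held 149 and 109 Vars counts, and T cell footprint libraries 1 and 2 held 136 and 18.

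The Vars footprint difference was 1.77 ± 0.41 on the log2 scale (SE, n = 2 libraries per group), or 3.41-fold, with an adjusted p of 0.0133 in edgeR's quasi-likelihood test. The mRNA difference was 1.59 ± 0.16, or 3.01-fold, with an adjusted p of 0.00782 in the same test. The footprint call depended on the T cell libraries: the difference was 2.10 with an adjusted p of 0.0502 in edgeR without T cell library 1, and 1.49 with an adjusted p of 0.158 without T cell library 2. In mRNA the difference ran from 1.501 to 1.67 when each library was left out and was called each time. The B cell RNA-seq libraries held 21.2 and 316 CPM of T cell markers, and 1517 and 370 CPM of plasma cell markers. Whether such cells had a part in the Vars difference was not tested. Vars2, the mitochondrial partner of Vars, had 35.96 and 37.9 CPM of mRNA in B cells, against 41.3 and 37.0 CPM in T cells. The Vars2 groups overlapped, with a log2 difference of -0.09.

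Across the family, 1 of the 21 members tested in footprints had a higher level in B cells and 0 had a lower level. The background was 8.38% of 4771 tested genes higher and 4.8% lower. The 21 were 19 of the 20 cytosolic members, all but Cars, and among the mitochondrial members Iars2 and Lars2, since the others fell under the count filter. The 19 cytosolic members had a median log2 difference of 0.24, with a range from -1.04 to 1.77, beside a median of 0.02 over all genes tested. At an unadjusted p below 0.05, 2 of the 21 members passed (9.52%, beside 23.7% of all genes), and DESeq2 called Vars alone. The count was 0 without T cell footprint library 1 and 0 without library 2.

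Eprs, the bifunctional glutamyl-prolyl-tRNA synthetase of the multisynthetase complex, stood at the low end of the footprint comparison. It had 254 and 163 CPM in B cells, against 319 and 558 CPM in T cells. Both B cell libraries were below both T cell libraries, yet the difference of -1.04 ± 0.44 did not pass (adjusted p = 0.17 in edgeR). Gars, which codes for both the cytosolic and the mitochondrial glycyl-tRNA synthetase, had 144 and 148 CPM of footprints in B cells, against 220 and 210 CPM in T cells (log2 difference -0.56 ± 0.37). Lars2, the mitochondrial leucyl-tRNA synthetase, had 346 and 240 CPM in B cells, against 353 and 493 CPM in T cells (-0.51 ± 0.41). Neither Gars nor Lars2 passed, although their groups did not overlap.

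On the high side after Vars, Wars, the cytosolic tryptophanyl-tRNA synthetase that interferons are known to induce, had 88.7 and 81.4 CPM of footprints in B cells, against 62.2 and 36.2 CPM in T cells. Dars, the aspartyl-tRNA synthetase of the multisynthetase complex, had 139 and 57.5 CPM in B cells, against 69.4 and 72.5 CPM in T cells. The Wars groups did not overlap and the Dars groups did, and neither difference passed. It was 0.66 ± 0.46 on the log2 scale for Wars and 0.49 ± 0.50 for Dars, and the Dars value turned to -0.31 without B cell footprint library 1.

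In mRNA, all 36 members were tested, and Vars alone (1 member) passed as higher in B cells, with 0 lower. The background was 9.4% of 13929 tested genes higher and 9.06% lower. The cytosolic members had a median log2 difference of 0.08, with a range from -0.39 to 1.59, and the mitochondrial members one of -0.01, with a range from -0.48 to 0.33. The median over all genes tested was -0.01. Without Vars the highest cytosolic value was 0.42. At an unadjusted p below 0.05, 5 of the 36 members passed (13.9%, beside 32.5% of all genes), and DESeq2 called Vars alone.

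The members next to the threshold in mRNA were higher or lower by less than 1.5-fold. Mars1, the methionyl-tRNA synthetase, had 86.6 and 77.2 CPM in B cells, against 61.5 and 61.2 CPM in T cells (log2 difference 0.42 ± 0.12, adjusted p = 0.077 in edgeR). Farsb, the beta subunit of the phenylalanyl-tRNA synthetase, had 78.0 and 78.0 CPM in B cells, against 55.1 and 61.8 CPM in T cells (0.42 ± 0.12, adjusted p = 0.078 in edgeR). Its partner subunit Farsa differed by 0.06. Mars1 overlaps Ddit3, and Farsb overlaps Sgpp2; the sources used here do not say whether the counting used strand, so reads of overlapping genes may have been shared or dropped.

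Fars2, the mitochondrial phenylalanyl-tRNA synthetase, was lowest relative to T cells, with 19.7 and 19.0 CPM of mRNA in B cells, against 27.0 and 26.9 CPM in T cells (-0.48 ± 0.16, adjusted p = 0.11 in edgeR). Dars had 71.9 and 57.7 CPM in B cells, against 86.3 and 83.0 CPM in T cells. Nars, the asparaginyl-tRNA synthetase, had 86.7 and 78.4 CPM in B cells, against 102 and 99.4 CPM in T cells. For these 3 genes both B cell libraries lay below both T cell libraries, and none of the 3 differences passed.

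**Figure D2:**
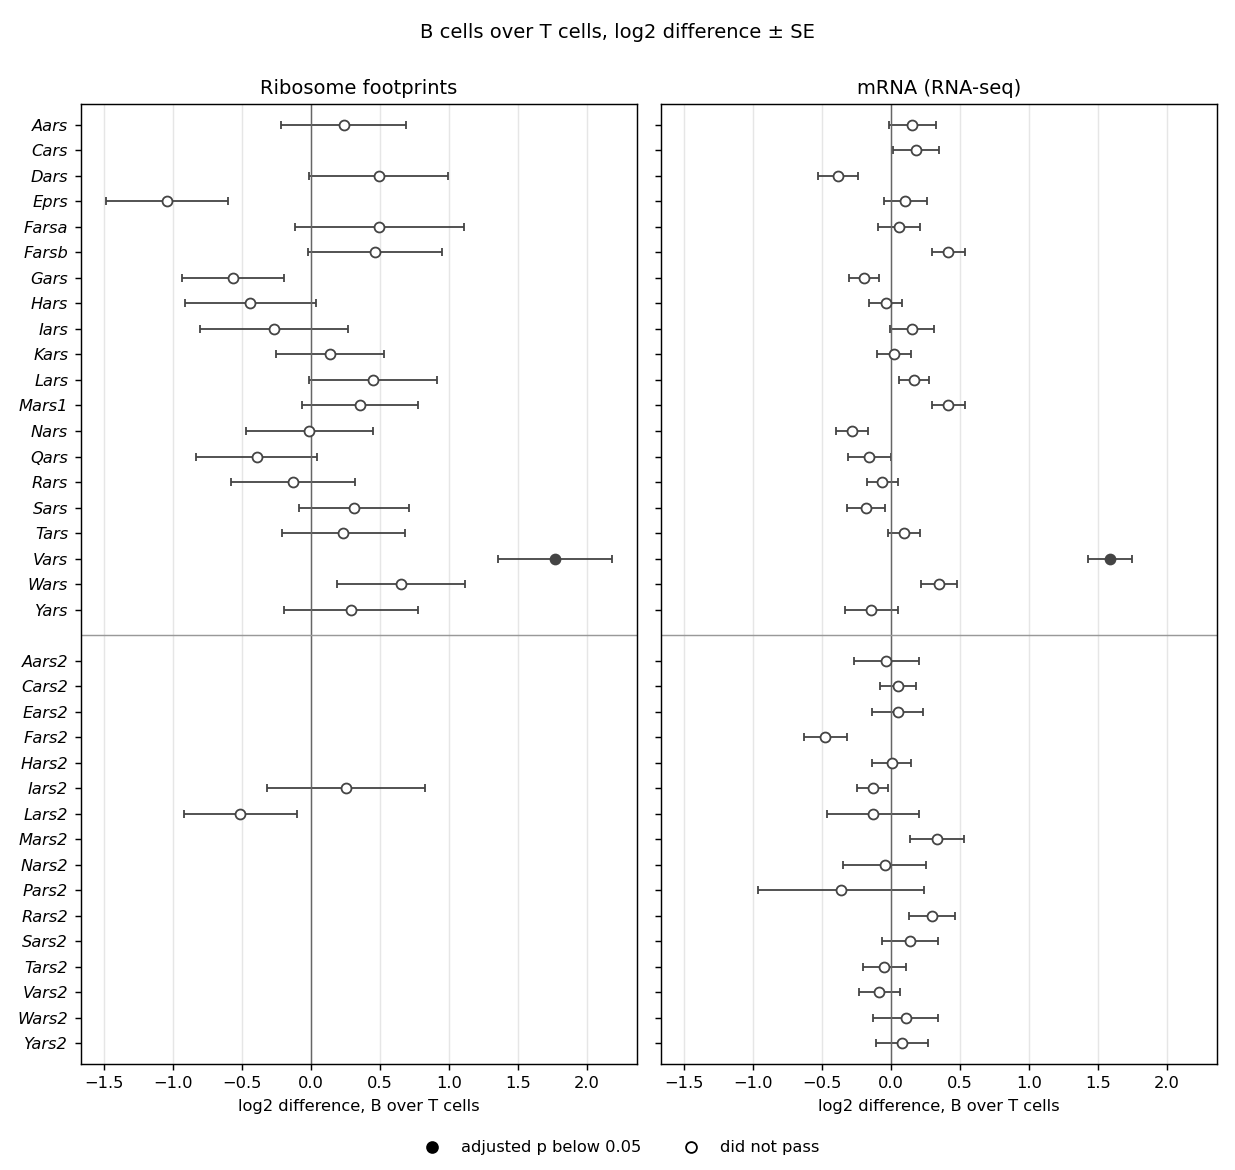
Log2 difference between B cells and T cells for each synthetase gene in ribosome footprints (left, 21 genes tested) and in mRNA (right, 36 genes tested), with bars of 1 SE and filled symbols where the adjusted p was below 0.05. Vars is the only filled symbol in each panel, at 1.77 in footprints and 1.59 in mRNA, and Eprs lies lowest in footprints at -1.04.

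Footprints were then set against mRNA within each cell type, in a fit of all 8 libraries, as a measure of ribosome occupancy relative to mRNA level. The assays also differed in cycloheximide, named for footprints only, and in sequencing, single-end for footprints and paired-end for RNA-seq. In this measure such differences cannot be told apart from ribosome occupancy. In that fit the log2 difference of footprints over mRNA is relative to totals scaled over all 8 libraries, and all 36 members passed the count filter, the mitochondrial ones largely through their RNA-seq counts. In B cells 0 members were higher in footprints and 5 were lower, beside 6.51% of 13227 genes higher and 12.3% lower. In T cells 3 members were higher and 5 were lower, beside 8.91% higher and 18.6% lower. At an unadjusted p below 0.05, 11 members passed in B cells (30.6%, beside 35.1% of all genes) and 14 in T cells (38.9%, beside 41.7%), and DESeq2 called 4 higher and 4 lower in B cells and 5 higher and 4 lower in T cells. The lower calls were Aars2, Cars2, Fars2, Lars2 and Tars2 in B cells and Aars2, Cars2, Lars2, Tars2 and Vars2 in T cells, and of these only Lars2 passes the filter of the footprint comparison. The others entered through RNA-seq counts, the assay in which they are high, so their number is a description and supports no difference between the compartments. With the 4771 genes of the footprint filter, the lower calls were Lars2 and the cytosolic Qars in both cell types. In the fit of all 13227 genes the higher calls, all in T cells, were Eprs, Gars and Rars. With the genes of the footprint filter they were Eprs and Gars.

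In B cells the cytosolic members had a median log2 difference of footprints over mRNA of 0.35 (range -0.96 to 1.11), and the mitochondrial members one of -0.47 (range -3.17 to 0.96). The median over all genes tested was -0.44. In T cells the cytosolic median was 0.17 (range -0.70 to 2.11) and the mitochondrial median was -1.09 (range -2.47 to 0.82), beside -0.54 over all genes. The cytosolic median exceeded the mitochondrial median by 0.82 (B cells) and by 1.27 (T cells). Of the mitochondrial members only Iars2 and Lars2 pass the footprint filter, and the others entered through their RNA-seq counts. The gap between the medians is therefore a description and supports no difference between the compartments. The B cell value was 0.50 without B cell footprint library 1 and 1.86 without B cell footprint library 3. The all-gene median itself depended on which genes entered, at 0.01 in B cells and -0.04 in T cells when the 4771 genes passing the footprint filter were used alone.

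**Figure D3:**
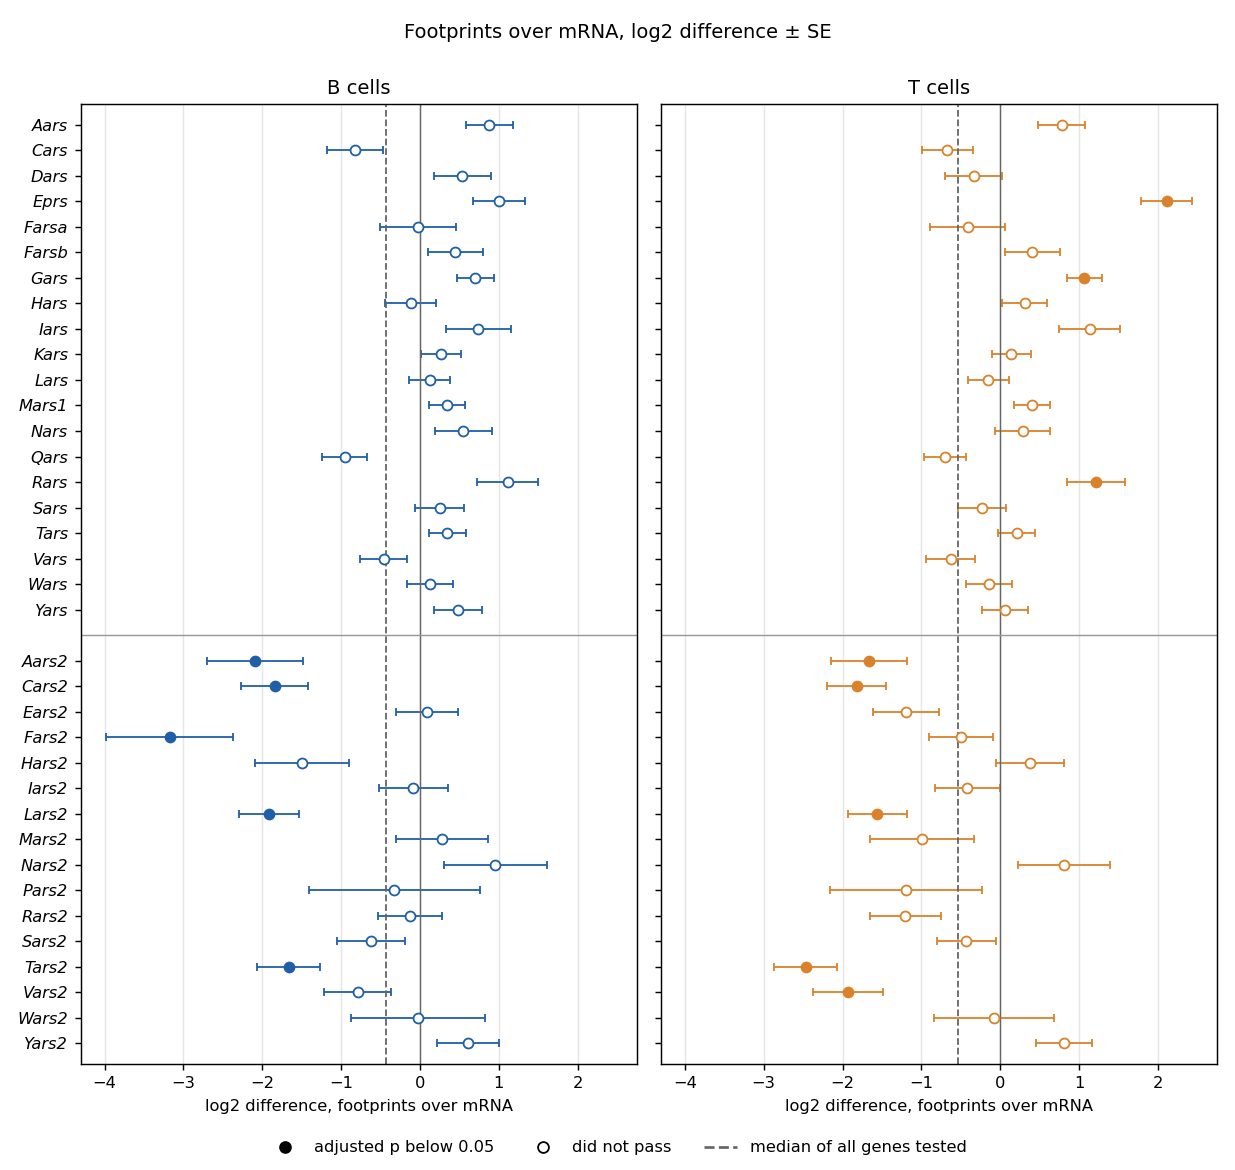
Log2 difference of footprints over mRNA for each synthetase gene in B cells (left) and T cells (right), with bars of 1 SE, filled symbols where the adjusted p was below 0.05, and a dashed line at the median of all 13227 genes tested. The filled symbols below 0 are 5 genes in each cell type, of which Lars2 alone passes the footprint filter, and the 3 above 0 are Eprs, Gars and Rars in T cells.

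Eprs had the highest log2 difference of footprints over mRNA among the members in T cells. On the scale of the 8-library fit it had 244 and 155 CPM in B cell footprints, against 102 and 97.7 CPM in B cell mRNA, and the difference of 1.001 ± 0.33 did not pass (adjusted p = 0.064 in edgeR). Its T cell levels on that scale were 334 and 513 CPM in footprints, against 107 and 85.3 CPM in mRNA. That difference was 2.11 ± 0.32, or 4.32-fold, with an adjusted p of 0.00289 in edgeR. Footprints exceeded mRNA in every library of both cell types. The T cell difference of Eprs ran from 1.88 to 2.48 and was called each time a library was left out.

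In B cells the cytosolic members with the smallest p on the high side were Eprs, Gars and Aars, the alanyl-tRNA synthetase. Gars had 138 and 141 CPM in B cell footprints, against 85.6 and 85.9 CPM in B cell mRNA (0.70 ± 0.23, adjusted p = 0.069 in edgeR). Aars had 85.3 and 141 CPM in footprints, against 56.0 and 66.0 CPM in mRNA (0.88 ± 0.30, adjusted p = 0.075 in edgeR). For these genes the footprint libraries lay above the mRNA libraries without overlap, and none passed. A higher call came for Iars without B cell footprint library 3, and for Rars without T cell footprint library 1 or 2. DESeq2 called 4 members higher in B cells, namely Aars, Eprs, Gars and Rars.

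Gars had 230 and 193 CPM in T cell footprints, against 103 and 101 CPM in T cell mRNA (1.07 ± 0.22, 2.10-fold, adjusted p = 0.0104 in edgeR). Rars, the arginyl-tRNA synthetase of the multisynthetase complex, had 207 and 80.0 CPM in T cell footprints, against 64.8 and 69.4 CPM in T cell mRNA (1.21 ± 0.37, adjusted p = 0.0401 in edgeR). The Rars difference rested mainly on T cell footprint library 1: it was 0.31 without it, and that of Gars was 0.98 with an adjusted p of 0.0757 in edgeR. Without that library only Eprs of the 3 remained called. Rars was also not called without T cell RNA-seq library 1 or 4 (adjusted p = 0.0921 and 0.0793 in edgeR). Without B cell footprint library 1 the fit added Aars and Iars as higher in T cells, and DESeq2 on all libraries added the same genes. Iars was also added with RLE, upper-quartile and within-assay TMM scaling, with no filter beyond 1 count and with protein-coding genes alone. With the genes of the footprint filter Rars was not called.

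Among the cytosolic members Qars, the glutaminyl-tRNA synthetase, had the lowest log2 difference of footprints over mRNA in both cell types. It had 73.2 and 63.6 CPM in B cell footprints, against 140 and 126 CPM in B cell mRNA, with a difference of -0.96 ± 0.29 and an adjusted p of 0.0501 in edgeR. Its T cell levels were 107 and 73.3 CPM in footprints, against 168 and 140 CPM in mRNA (-0.70 ± 0.27, adjusted p = 0.082 in edgeR). Footprints lay below mRNA in every library of both cell types. DESeq2 called Qars lower in B cells but not in T cells. Qars was called lower in B cells when T cell footprint library 1 or 2 was left out, and in both cell types with the 4771 genes of the footprint filter. Vars, high in B cells in both assays, had differences of -0.46 ± 0.30 in B cells and -0.63 ± 0.31 in T cells, which did not pass.

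Lars2 (ENSMUSG00000035202, chr9:123366927-123462675) carried most of the mitochondrial RNA-seq counts. It had 333 and 227 CPM in B cell footprints, against 1367 and 750 CPM in B cell mRNA. The T cell libraries had 369 and 453 CPM in footprints, against 1316 and 1087 CPM in mRNA. Footprint libraries lay below mRNA libraries in both cell types. The log2 difference was -1.92 ± 0.38 in B cells (3.77-fold lower, adjusted p = 0.0113 in edgeR) and -1.56 ± 0.37 in T cells (2.94-fold lower, adjusted p = 0.0174 in edgeR).

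The 2 RNA-seq libraries of B cells differed in Lars2, with 12027 counts in library 1 and 6800 in library 3. Without RNA-seq library 1 the B cell difference was -1.38 with an adjusted p of 0.0548 in edgeR, and without footprint library 3 it was -1.69 with an adjusted p of 0.0575. In T cells the adjusted p of Lars2 was 0.165 without footprint library 1, 0.0605 without footprint library 2 and 0.0572 without RNA-seq library 1. A long non-coding gene, Gm46137, overlaps Lars2. The sources used here do not say whether reads of the 2 genes were told apart.

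Tars2, the mitochondrial threonyl-tRNA synthetase, and Cars2, the mitochondrial cysteinyl-tRNA synthetase, had few footprint counts and entered the fit through their RNA-seq counts. Tars2 had 7 and 3 footprint counts in B cells, or 28.4 and 13.6 CPM, against 61.2 and 74.1 CPM in B cell mRNA (-1.66 ± 0.40, adjusted p = 0.0232 in edgeR). In T cells it had 10 and 1 footprint counts, or 15.1 and 6.7 CPM, against 67.3 and 78.3 CPM in mRNA (-2.47 ± 0.40, adjusted p = 0.00367 in edgeR). The footprint libraries of Tars2 lay below all mRNA libraries.

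Cars2 had 4 and 2 footprint counts in B cells, or 16.3 and 9.1 CPM, against 46.4 and 45.9 CPM in B cell mRNA (-1.84 ± 0.42, adjusted p = 0.0192 in edgeR). In T cells it had 10 and 1 footprint counts, or 15.1 and 6.7 CPM, against 44.4 and 48.1 CPM in mRNA (-1.82 ± 0.38, adjusted p = 0.00997 in edgeR). From the summed counts alone, the ratio of footprints to mRNA was 0.279 in B cells and 0.293 in T cells, with exact 95% intervals of 0.102 to 0.61 and 0.146 to 0.528 that cover counting error only.

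Aars2, the mitochondrial alanyl-tRNA synthetase, Fars2 and Vars2 were called from very few footprints. Aars2 had 1 and 1 footprint counts in B cells, against 135 and 195 RNA-seq counts, and 4 and 1 in T cells, against 178 and 182. Its ratio was 0.232 in B cells (exact 95% interval 0.028 to 0.846, counting error only) and 0.315 in T cells (0.102 to 0.741). The adjusted p of Aars2 was 0.0451 in B cells and 0.0336 in T cells in edgeR, and in B cells it lost the call under every one of the 15 alternatives that tested it. The T cell call was lost under 8 of 14.

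Fars2 had 0 and 1 footprint counts in B cells, against 176 and 174 RNA-seq counts. The ratio was 0.11 (0.00277 to 0.614), with an adjusted p of 0.0281 in edgeR, and DESeq2 did not call Fars2 in B cells. In T cells it had 15 and 2 footprint counts, against 266 and 255 RNA-seq counts, a ratio of 0.739 (0.427 to 1.19), and did not pass. Vars2 had 3 and 7 footprint counts in B cells, against 321 and 347 RNA-seq counts, and did not pass (log2 difference -0.79). In T cells it had 8 and 1, against 407 and 351, with a difference of -1.93 ± 0.44 and an adjusted p of 0.0149 in edgeR.

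These mitochondrial calls depended on single libraries. In B cells the 5 lower calls became 1 without RNA-seq library 1 (Tars2), 1 without RNA-seq library 3 (Lars2), 3 without footprint library 1 (Cars2, Lars2 and Tars2) and 1 without footprint library 3 (Fars2). In T cells the 5 lower calls became 0 without footprint library 1, which holds most T cell footprint counts, 2 without footprint library 2 (Cars2 and Tars2) and 3 without RNA-seq library 1 (Cars2, Tars2 and Vars2). Without any 1 of the T cell libraries, 4 of the 5 were called in B cells (Cars2, Fars2, Lars2 and Tars2). In T cells 4 of the 5 were called when T cell RNA-seq library 4 or B cell RNA-seq library 1 or 3 was left out, and all 5 when B cell footprint library 1 or 3 was left out. The sign of the difference stayed negative for each called member in each of these fits.

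Among all 16 mitochondrial members the T cell estimate was below 0 for 13, as it was for 8531 of all 13227 genes tested. Against the all-gene median of -0.54, 9 of the 16 members lay below and 7 above. Of those not called in T cells, Ears2 (-1.20 ± 0.42, adjusted p = 0.0644 in edgeR) and Rars2 (-1.20 ± 0.45, adjusted p = 0.0789) had footprint libraries below the mRNA libraries, and Pars2 (-1.19 ± 0.96) and Mars2 (-0.99 ± 0.66) had larger errors. Hars2, the mitochondrial histidyl-tRNA synthetase, had 1 and 5 footprint counts in B cells, against 321 and 331 RNA-seq counts, and 25 and 11 in T cells, against 341 and 353. Nars2 and Yars2, the asparaginyl and tyrosyl enzymes, had estimates above 0 in both cell types, with 0.96 for Nars2 and 0.61 for Yars2 in B cells, and 0.82 for Nars2 and 0.81 for Yars2 in T cells. None of these passed.

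Summed over the lists, the cytosolic members had 691 and 468 footprint counts in B cells, and the mitochondrial members 149 and 117. In B cell mRNA the sums were 19473 and 20465 for the cytosolic members and 15713 and 10830 for the mitochondrial members. The ratio of the cytosolic to the mitochondrial sum was therefore 4.64 and 4.0 in B cell footprints, against 1.24 and 1.89 in B cell mRNA. For T cells the ratio was 3.65 and 2.98 in footprints, against 1.03 and 1.15 in mRNA. Footprint libraries lay above mRNA libraries in both cell types, with no overlap.

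On the log2 scale the ratio was 2.11 ± 0.15 in B cell footprints and 0.61 ± 0.43 in B cell mRNA, a difference of 1.49, and 1.72 ± 0.21 in T cell footprints and 0.12 ± 0.11 in T cell mRNA, a difference of 1.60 (SD, n = 2 libraries per group). Lars2 made up a large part of the mitochondrial mRNA sum, with 12027 of 15713 counts in B cell library 1. Without Lars2 the ratio was 10.3 and 6.98 in B cell footprints, against 5.28 and 5.08 in B cell mRNA, and 8.37 and 8.46 in T cell footprints, against 4.08 and 3.83 in T cell mRNA. The difference between footprints and mRNA was then 0.71 in B cells and 1.09 in T cells. This difference kept its sign, and footprint and mRNA libraries still did not overlap. The mitochondrial footprint sum without Lars2 was small, from 37 counts (T cell library 2) to 189 counts (T cell library 1). Of the members left in it, only Iars2 passes the footprint filter. No such ratio for other genes was set beside these values. The ratios of sums, with or without Lars2, are therefore a description and support no difference between the compartments. With 2 libraries against 2, a two-sided exact permutation test cannot go below p = 0.333, and none was run.

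**Figure D4:**
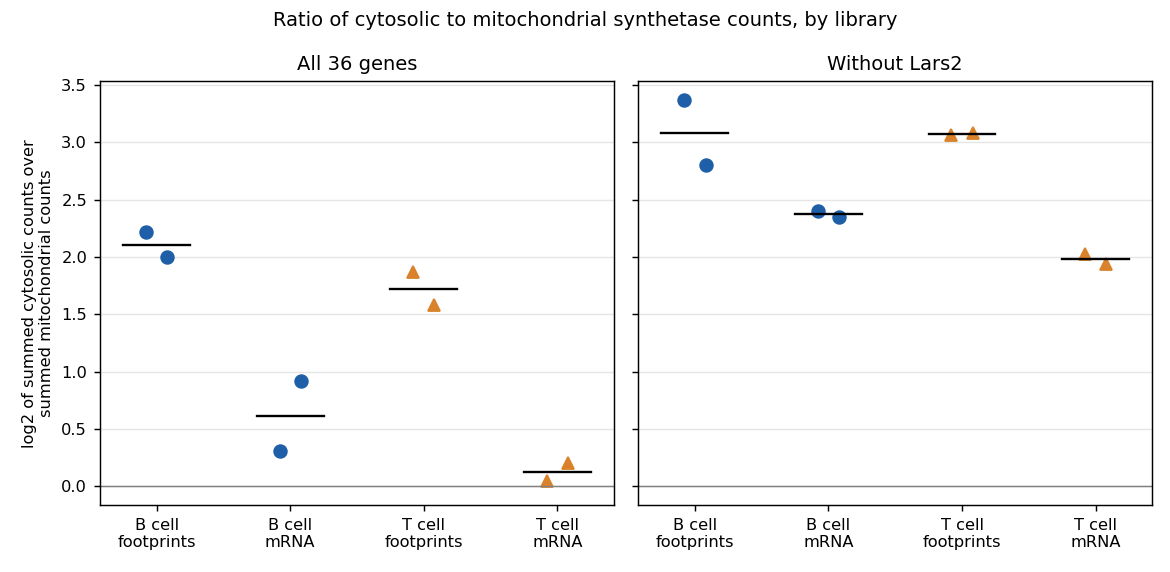
Log2 of the summed cytosolic counts over the summed mitochondrial counts in each library, for all 36 genes (left) and without Lars2 (right), with circles for B cells, triangles for T cells and a bar at the mean of 2 libraries. The footprint libraries lie above the mRNA libraries of the same cells in both panels, with means of 2.11 and 0.61 in B cells for all 36 genes and of 3.09 and 2.37 without Lars2.

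Cytosolic and mitochondrial enzymes for the same amino acid formed 15 pairs, with Farsa and Farsb each set against Fars2. The cytosolic member had the higher log2 difference of footprints over mRNA in 13 of 15 pairs in B cells and in 11 of 15 in T cells. The median of the pair differences was 1.02 in B cells and 1.15 in T cells. Among the mitochondrial partners only Iars2 and Lars2 pass the footprint filter, and the others entered through their RNA-seq counts. The tally of pairs and its median are therefore a description and support no difference between the compartments. The alanine pair, Aars and Aars2, differed by 2.98 in B cells and 2.44 in T cells. The valine pair, Vars and Vars2, differed by 0.33 in B cells and 1.298 in T cells. The asparagine pair, Nars and Nars2, and the tyrosine pair, Yars and Yars2, had the mitochondrial member higher in both cell types. For the difference between B and T cell mRNA, the cytosolic member was higher in 10 of 15 pairs, with a median of 0.14.

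The multisynthetase complex enzymes, Eprs, Iars, Lars, Mars1, Qars, Rars, Kars and Dars, gave 0 calls of 8 between B cells and T cells in either assay in edgeR and in DESeq2. Of all genes tested in edgeR, 8.38% were higher and 4.8% lower in footprints, and 9.4% higher and 9.06% lower in mRNA. At an unadjusted p below 0.05, 1 of the 8 passed in footprints (12.5%, beside 23.7% of all genes) and 2 in mRNA (25%, beside 32.5%). Against mRNA, the footprints of these 8 enzymes had a median log2 difference of 0.44 in B cells with 0 calls, and of 0.27 in T cells with 2 higher calls (Eprs and Rars) and 0 lower. By the structural class of the catalytic domain, the 19 class I members had 0 higher and 2 lower calls in B cells and 2 higher and 3 lower in T cells. The 17 class II members had 0 higher and 3 lower calls in B cells, and 1 higher and 2 lower in T cells. For footprints over mRNA, the background was 6.51% higher and 12.3% lower in B cells, and 8.91% higher and 18.6% lower in T cells. Nothing is read from these counts about a class or about the complex. Kars, which like Gars serves both compartments, was within 0.27 of 0 on the log2 scale in each of these comparisons.

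The difference between cell types in footprints over mRNA, which asks whether translational efficiency differed, gave 0 higher and 0 lower calls among the 36 members. The background was also 0 of 13227 genes (0%) in each direction in edgeR, with 748 genes and 3 members at an unadjusted p below 0.05. DESeq2 called 2 genes higher and 8 lower over the whole table, and 0 of them were members. For Vars the difference was 0.17 ± 0.43 on the log2 scale. The 3 members were Fars2 (-2.68 ± 0.98), Hars2 (-1.88 ± 0.74) and Eprs (-1.11 ± 0.45), lower in B cells, each with an adjusted p of 0.875 in edgeR. On the high side Ears2, the mitochondrial glutamyl-tRNA synthetase, had the smallest p, with 7 and 4 footprint counts in B cells, against 7 and 1 in T cells (1.28 ± 0.58). Vars2 and Dars followed at 1.13 ± 0.65 and 0.87 ± 0.51. Dars turned to -0.07 without B cell footprint library 1.

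The 32 other genes of the pathway covered the scaffold of the multisynthetase complex, the mitochondrial amidotransferase and formylation enzymes, proofreading, transfer RNA maturation, selenocysteine synthesis and the amino acid response. In mRNA 3 of 29 tested genes had higher levels in B cells and 0 had lower levels, beside 9.4% of all genes higher and 9.06% lower, so the count of higher genes was near the background. Qrsl1, a subunit of the amidotransferase that makes mitochondrial glutaminyl-tRNA in place of a dedicated synthetase, had 41.0 and 33.8 CPM in B cells, against 12.6 and 14.9 CPM in T cells (1.45 ± 0.20, adjusted p = 0.0142 in edgeR). Eif2ak4, the kinase GCN2 that senses uncharged transfer RNA, had 46.0 and 49.3 CPM in B cells, against 21.4 and 13.8 CPM in T cells (1.44 ± 0.25, adjusted p = 0.0255 in edgeR). Sesn2, a leucine sensor upstream of mTORC1, had 16.1 and 14.2 CPM in B cells, against 7.61 and 5.38 CPM in T cells (1.22 ± 0.27, adjusted p = 0.0447 in edgeR). For all 3 genes the B cell libraries lay above the T cell libraries. Qrsl1 was called whichever library was left out. The adjusted p of Eif2ak4 was 0.0745 in edgeR without B cell library 3, and that of Sesn2 was 0.176 and 0.116 without B cell library 1 and 3 and 0.119 without T cell library 4. The Sesn2 call was lost under 5 of 9 alternatives. In footprints 0 of 14 genes passed in edgeR, beside 8.38% of all genes higher and 4.8% lower. At an unadjusted p below 0.05, 1 of the 14 passed (7.14%, beside 23.7% of all genes).

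Against mRNA, footprints of the other pathway genes gave 0 higher and 3 lower calls of 30 in B cells, and 2 higher and 3 lower in T cells. In B cells the background was 6.51% higher and 12.3% lower, and in T cells it was 8.91% higher and 18.6% lower, so these counts were below the background. Atf4 itself, whose translation is known to be held back by upstream open reading frames, had 44.7 and 145 CPM in B cell footprints, against 863 and 516 CPM in B cell mRNA (-2.87 ± 0.61, adjusted p = 0.0138 in edgeR). Ddit3, Pstk and Mtfmt were under the count filter of the footprint comparison and entered this fit through their RNA-seq counts, so their calls are given as a description. Ddit3, an ATF4 target that overlaps Mars1, was called in both cell types. It had 5 and 3 footprint counts in B cells (ratio of footprints to mRNA 0.234, exact 95% interval 0.101 to 0.462), and 3 and 0 in T cells (0.11, 0.0227 to 0.324). Pstk, the kinase of selenocysteine synthesis, was also called in both, with 0 and 2 footprint counts in B cells (0.125, 0.0152 to 0.455) and 9 and 1 in T cells (0.246, 0.118 to 0.455). In T cells Mtfmt, the mitochondrial formyltransferase, was called, with 3 and 1 footprint counts against 171 and 211 RNA-seq counts (0.237, 0.0643 to 0.612). These intervals cover counting error only. Within T cells, Trnt1, which adds the CCA end to transfer RNA, was higher in footprints than in mRNA (1.39 ± 0.24, adjusted p = 0.00495 in edgeR). So was Slc3a2, the heavy chain of amino acid transporters (1.71 ± 0.41, adjusted p = 0.0172 in edgeR). Without T cell footprint library 1, the adjusted p in edgeR was 0.0621 for Trnt1, 0.0857 for Slc3a2, 0.0932 for Ddit3, 0.152 for Pstk and 0.472 for Mtfmt in T cells, so none of the 5 was called. Without B cell footprint library 1, it was 0.0692 for Atf4, 0.0706 for Ddit3 and 0.0887 for Pstk in B cells.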

How the data were processed

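Footprints and mRNA of resting B and T cells were measured in 8 libraries, 2 per group. The authors deposited raw counts for each gene in each library, whole numbers that were not normalized. Per the submitters' processing notes the tools were FastQC, Bowtie2, TopHat and HTSeq, with the mm10 build. Tool versions, settings, use of strand and annotation release are not stated in these sources. Symbols came from a names table that held 53620 of the 53801 Ensembl IDs. Ddit3 has 2 IDs, and the lower was used. No row is named for unassigned reads.

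Differences were tested with the quasi-likelihood test of edgeR 4.0.16 (R 4.3.3) after TMM scaling and filterByExpr (minimum count 10, total 15), with Benjamini-Hochberg adjustment over all genes tested and a threshold of 0.05. The contrast of B cells over T cells used the 4 libraries of that assay (residual degrees of freedom, 2). Footprints over mRNA, and the translational efficiency of B over T cells, came from 1 model of the 8 libraries (residual degrees of freedom, 4). A value after ± is an SE for a log2 difference and an SD for a ratio of sums. Replicate libraries differed beyond sampling noise, with chi-square per degree of freedom from 4.43 to 29.4. With 136433 to 627833 footprint counts, 1 count is worth 1.59 to 7.33 CPM. The fitting was tested on simulated data.

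The members and lists were chosen with earlier results of these data known. Named were all members that passed in any comparison and, in each comparison, up to 3 members per direction by smallest p; other pathway genes were named where they passed. Alternatives were RLE and upper-quartile scaling, TMM within each assay, DESeq2 1.42.0, no filter beyond 1 count, protein-coding genes alone, leaving out each library in turn and a replicate block. The motif sites of 1 member are not reported here.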

Additional observations from a re-analysis of the deposited data

How the results depend on the processing

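Between B and T cells, the count of members called (1 higher, 0 lower in each assay) was the same under every scaling, filter and tool tried, except that leaving out libraries gave 0 to 1 higher in footprints. For footprints over mRNA in B cells, 0 higher became 1 with RLE scaling, 1 with upper-quartile scaling, 4 with DESeq2 and 0 to 1 leaving out libraries, and 5 lower became 2 with the genes of the footprint filter and 1 to 5 leaving out libraries. In T cells, 3 higher became 5 with DESeq2 and 1 to 5 leaving out libraries, and 5 lower became 2 with the footprint filter and 0 to 6 leaving out libraries. Translational efficiency gave 0 members called under all 16 alternatives. The cytosolic median minus the mitochondrial median was 0.09 for B over T mRNA (-0.024 to 0.049 leaving out libraries), 0.82 for footprints over mRNA in B cells (0.50 to 1.86, and 1.345 with the footprint filter, which keeps 2 mitochondrial members) and 1.27 in T cells (1.03 to 1.45). The footprint minus mRNA log2 ratio of the sums was 1.49 in B cells (1.19 to 1.80 leaving out libraries, 0.71 without Lars2, 0.94 without Lars2 and Vars) and 1.60 in T cells (1.45 to 1.75, 1.09 without Lars2, 1.21 without both). Leaving out B cell footprint library 1 reversed Dars, whose footprint difference ran from -0.31 to 0.97 and whose efficiency difference ran from -0.072 to 1.32 as each library was left out. With the replicate block over B cell numbers 1 and 3, 4 members were lower in place of 5, with Aars2 at an adjusted p of 0.0729 in edgeR; libraries sharing a number had deviations with r = 0.03 over 4771 genes, from 1 pair of numbers, and the labels do not say that a number marks a shared sample. The T cell, natural killer cell and erythroid markers were higher in B cell library 3 than in B cell library 1 in both assays. The cycling cell markers were lower in library 3 in both. The B cell, plasma cell, neutrophil and macrophage markers went opposite ways in the 2 assays. Over all genes, footprints over mRNA gave 861 higher and 1623 lower in B cells, against 1428 and 1504 with DESeq2, 584 and 619 with the footprint filter, and 430 to 935 and 851 to 1763 leaving out libraries. In T cells it gave 1178 and 2464, against 760 and 799 with the footprint filter, and 428 to 1526 and 519 to 2786 leaving out libraries. Leaving out libraries, B over T gave 254 to 479 higher and 161 to 419 lower in footprints and 737 to 1090 higher and 698 to 954 lower in mRNA; the causes were not tested. The footprint filter and the sums without Lars2 or Vars were chosen after seeing the data. Levels per kilobase were not run. Footprint depth limits the mitochondrial members, with medians of 1.5 to 9 counts per library.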
